A study of Mus musculus with 12 samples.

Results

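Described here are the mRNA levels of 10 genes of the NRF2 antioxidant pathway in mouse embryonic fibroblasts given DZ, adenine, or SAM. The 10 genes were fixed by name, were matched to the deposited table through their Ensembl gene identifiers, and were all found among its 12591 genes. They are Nfe2l2, Keap1, Nqo1, Hmox1, Txnrd1, Srxn1, Prdx1, Gclc, Gclm, and Slc7a11. The immortalized cells came from C57 mouse embryos with the PER2::LUC knock-in, a luciferase fusion of the clock protein PER2, for which they were heterozygous according to the study. Confluent cells were kept for 24 h in new medium with 3.3 mM HCl alone (CTL) or with 3.3 mM HCl and 10 µM Deazaneplanocin A (DZ), 1 mM adenine, or 1 mM S-adenosylmethionine (SAM). All groups, CTL included, thus carried the acid that served as solvent of adenine. DZ inhibits AHCY, the enzyme that removes S-adenosylhomocysteine, SAM is the methyl donor of the cell, and adenine is the base contained in SAM. There were 3 replicate dishes in each of the 4 groups, and no source used here said whether the dishes came from separate cell preparations, so that p-values measure the spread between dishes only.

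NRF2, the product of Nfe2l2, is a transcription factor that is held low in resting cells because KEAP1 presents it to a ubiquitin ligase for degradation. When oxidants or electrophiles modify KEAP1, NRF2 escapes, pairs with a small MAF protein and binds antioxidant response elements in front of genes for glutathione synthesis, thioredoxin recycling, and the detoxification of quinones and haem. Much of this control acts on the NRF2 protein, which was not measured here. In fibroblasts in culture the cystine importer Slc7a11 supplies the cysteine for glutathione, and it is also known as a target of ATF4, the transcription factor of the amino acid response.

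The measurement was poly(A) RNA sequencing, and values are given as log2 CPM, the log2 of reads scaled to a common library size (CPM) on the authors' normalized library sizes. The depth, recovered from the table, lay between 45649534 and 56789090 reads on the listed genes. In a limma model of the 4 groups, the threshold for a call was an FDR under 0.01 with Benjamini-Hochberg adjustment over all 12591 genes. A difference of log2 CPM is called a log2 fold change, and because 2 reads were added before the logarithm it slightly understates the change of a low gene. With plain read totals in place of the authors' scaling factors, the values of all genes for SAM against CTL shifted by 0.122 in the median, so fold changes are relative to that scaling. Of 11 fibroblast markers 8 were in the table (Dcn, Lum, and Fap were not), with a summed level of 21840 to 22280 CPM in CTL, 27670 to 28260 in DZ, 24220 to 26540 in adenine, and 15860 to 17240 in SAM. Of these 8, Fn1 alone was called lower under SAM (-1.58, from a mean of 12090 CPM in CTL to 4066), and the other 7 were called higher, between 0.17 for Col1a2 and 2.55 for Pdgfra. None of 6 endothelial and 7 epithelial markers was in the table, which lists only genes with at least 1 CPM in all libraries, whereas 1 of 5 muscle markers was (Acta1, between 1.34 and 4.91 CPM). Of 9 leukocyte markers only Cd68 was listed, at 3.03 to 4 CPM in CTL, 2.73 to 3.79 in DZ, 10.8 to 12.3 in adenine, and 15.6 to 17.7 in SAM. These marker levels moved with the groups, and their part in the results was not tested. In such bulk RNA, fewer cells of a type and less RNA per cell cannot be told apart.

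Promoter sequence was available for 8 of the 10 genes in the RefSeq promoter table of GRCm38.p6, and Gclc and Hmox1 had no entry. The 250 bases before each RefSeq start were located in GRCm39 by exact match and searched on both strands for 3 motifs. The core of the antioxidant response element, TGACNNNGC, was found in 4 of the 8 (Gclm, Nfe2l2, Prdx1, and Txnrd1), against 10.2% of all 32851 promoters. The AP-1 element TGANTCA, which can overlap the former, was found in Prdx1 and Srxn1, against 6.75%. The C/EBP-ATF response element TGATGNAA, to which ATF4 binds, was found in Slc7a11 only, at 2 places, against 3.45%. These shares count every promoter of a gene, whereas each of the 8 genes was counted at a single start. In Keap1 and Nqo1 none of these letters occurred in the window, and sequence outside the window was not searched for any gene. The Gclm, Nfe2l2, and Txnrd1 stretches are shown because they hold the antioxidant response element core in genes that moved in different directions. That of Srxn1 is shown because it holds an AP-1 element without the letters TGACNNNGC, and that of Slc7a11 because it holds the C/EBP-ATF elements. Read on with the bases after it, the Srxn1 element is TGAGTCAGC, which differs from TGACNNNGC only by a G in place of C. Looser forms of the core were not searched, so its absence in Srxn1 concerns these exact letters. Capitals mark the match, and each reads 5′ to 3′ on the strand of the gene.

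The Gclm stretch lies at chr3:122039042-122039110 on the plus strand, within the span of the antisense gene ENSMUSG00000132270 but in no annotated exon.
Gclm: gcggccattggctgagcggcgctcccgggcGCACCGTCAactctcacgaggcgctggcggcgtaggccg
The Nfe2l2 stretch lies at chr2:75535209-75535257 on the minus strand, within an exon of the antisense gene E030042O20Rik and of the non-member gene Gm75256.
Nfe2l2: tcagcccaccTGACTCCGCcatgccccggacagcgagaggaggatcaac
The Txnrd1 stretch lies at chr10:82694918-82694986 on the plus strand, before the canonical start, in an intron of longer Txnrd1 transcripts and in an exon of the antisense gene Gm38560.
Txnrd1: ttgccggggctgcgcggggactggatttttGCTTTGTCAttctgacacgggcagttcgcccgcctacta
The Srxn1 stretch, with the AP-1 element nearer to the start, lies at chr2:151947369-151947435 on the plus strand, within an exon of the antisense gene 9230118N01Rik.
Srxn1: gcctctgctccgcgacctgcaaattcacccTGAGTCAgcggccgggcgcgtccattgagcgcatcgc
The Slc7a11 stretch, with both of its C/EBP-ATF elements in opposite orientations, lies at chr3:50398072-50398158 on the minus strand, outside all annotated genes.
Slc7a11: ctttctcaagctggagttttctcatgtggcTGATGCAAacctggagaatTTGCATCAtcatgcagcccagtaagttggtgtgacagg

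These matches describe the letters in the window and do not show binding. In Prdx1 the antioxidant response element core (GCTGAGTCA on the strand of the gene) shares its letters with 1 of 2 AP-1 elements.

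In the comparisons with CTL the 10 genes did not move as a group, and under SAM and adenine the widest changes were opposite in sign. Under SAM, Slc7a11 fell 8.09-fold and Hmox1 fell 1.87-fold, whereas Nqo1 rose 4.38-fold and Gclm rose 1.60-fold. Under adenine, Nqo1 rose 2.48-fold and Hmox1 fell 2.12-fold, and Slc7a11 did not pass the test. Under DZ none of the 10 changed by an absolute log2 fold change of 1.

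Against CTL, DZ called 4 of the 10 genes (1 higher and 3 lower) where 45.9% of all genes were called, 22.6% higher and 23.4% lower. Adenine called 6 (3 higher and 3 lower) against 61.6% of all genes, 30.6% higher and 31% lower. SAM called 8 (5 higher and 3 lower) against 69.3% of all genes, 33.7% higher and 35.7% lower. The number called was thus near the share over all genes in each of these comparisons. With median centring the split was 0 higher and 3 lower under DZ and 3 higher and 5 lower under adenine, and with plain read totals it was 2 higher and 3 lower under DZ. Leaving out DZ replicate 3 left 2 genes called under DZ.

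SAM was also set against adenine, since both were given at 1 mM for 24 h. In that comparison all 10 genes were called, 8 of them higher in SAM and 2 lower, where 42.7% of all genes were called, 20.8% higher and 22% lower. The dishes of the 2 groups did not overlap for any of the 10, against 61.3% of all genes. In the comparisons with CTL the dishes did not overlap for 5 genes in DZ (65.4% of all genes), 9 in adenine (74.7%), and 9 in SAM (77.6%). A called change of 1 log2 unit or more was found for 0 of the 10 under DZ (1.91% of all genes), 2 under adenine (10.2%), 2 under SAM (13.1%), and 1 between SAM and adenine (1.6%). The median log2 fold change of the 10 was -0.049 for DZ, -0.038 for adenine, 0.212 for SAM, and 0.325 for SAM against adenine, beside -0.0057, -0.0030, -0.015, and 0.00012 over all genes.

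**Figure D1:**
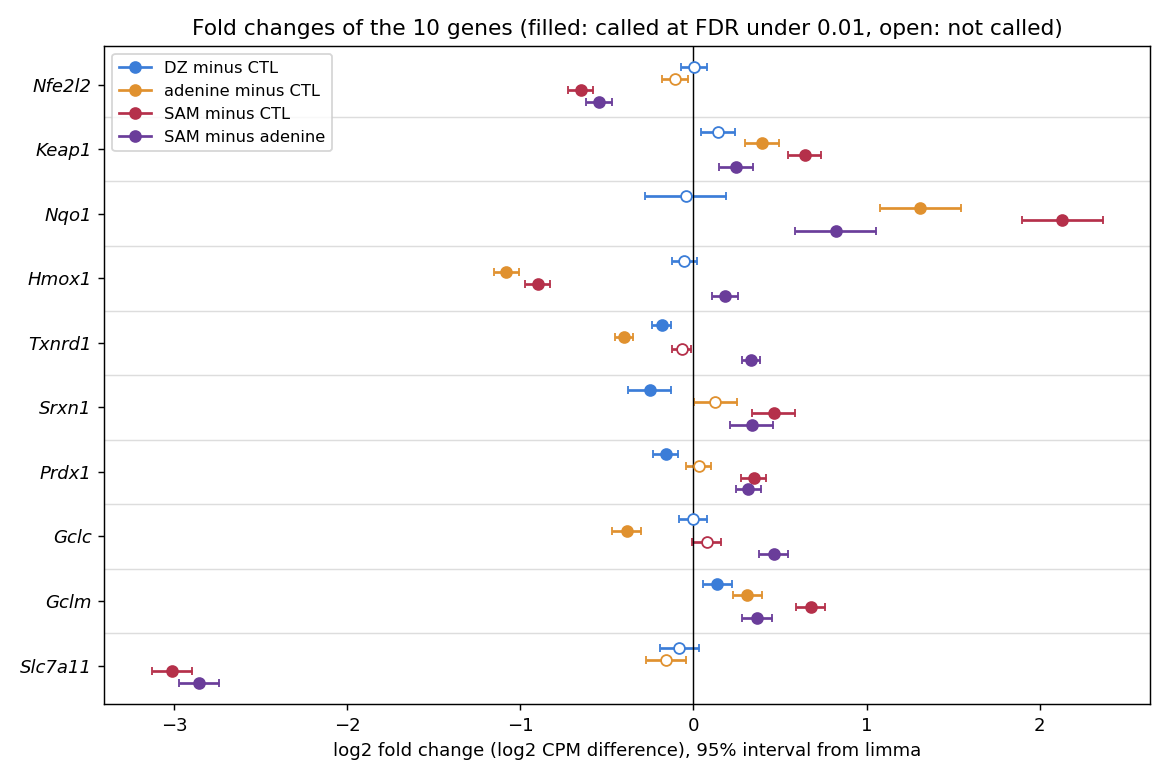
Log2 fold change of each of the 10 genes (x axis, with the 95% interval of the limma model) in DZ, adenine, and SAM against CTL and in SAM against adenine, with filled points for called genes. Slc7a11 stands at -3.02 for SAM against CTL and -2.86 against adenine, Nqo1 at 2.13 and 0.82, and all 10 purple points are filled.

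Nfe2l2 (ENSMUSG00000015839.7, chr2:75504739-75534985, minus strand of GRCm39), which encodes NRF2 itself, fell under SAM. It measured 6.71, 6.68, and 6.69 log2 CPM in the CTL dishes, 6.72, 6.66, and 6.71 in DZ, 6.53, 6.59, and 6.63 in adenine, and 6.02, 6.01, and 6.09 in SAM. All SAM dishes lay below every other dish, and the DZ dishes overlapped those of CTL. The log2 fold change for SAM was -0.65 (SE 0.035, limma adjusted p = 8.74e-11), and for SAM against adenine it was -0.55 (adjusted p = 5.68e-09 from limma). For adenine it was -0.11 (limma adjusted p = 0.0120), which passed without adenine replicate 3 (-0.13, adjusted p = 0.00669) and with median centring (-0.16, adjusted p = 9.51e-04). For DZ the value was 0.0037 with a 95% interval of -0.070 to 0.077.

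Keap1 (ENSMUSG00000003308.16, chr9:21141026-21150679, minus strand), the adaptor that sends NRF2 to degradation, moved the other way. Its dishes measured 5.49, 5.40, and 5.49 log2 CPM in CTL, 5.59, 5.64, and 5.57 in DZ, 5.90, 5.77, and 5.90 in adenine, and 6.16, 6.03, and 6.11 in SAM. The 4 groups stood in this order without overlap. Keap1 rose by 0.40 under adenine (SE 0.046, limma adjusted p = 1.38e-06) and by 0.64 under SAM (limma adjusted p = 3.44e-09), and was 0.25 higher in SAM than in adenine (limma adjusted p = 3.46e-04). The log2 fold change of 0.14 for DZ missed the threshold (limma adjusted p = 0.0152) and passed it with plain read totals (0.17, adjusted p = 0.00625).

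Within a library, Nfe2l2 exceeded Keap1 by 1.23 ± 0.042 log2 CPM (SD, n = 3) in CTL and by 1.09 ± 0.068 in DZ. This difference was 0.73 ± 0.093 in adenine and -0.062 ± 0.073 in SAM, with Keap1 above Nfe2l2 in all 3 SAM dishes. Such a difference between genes is not corrected for transcript length, and only its change between groups can be read.

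**Figure D2:**
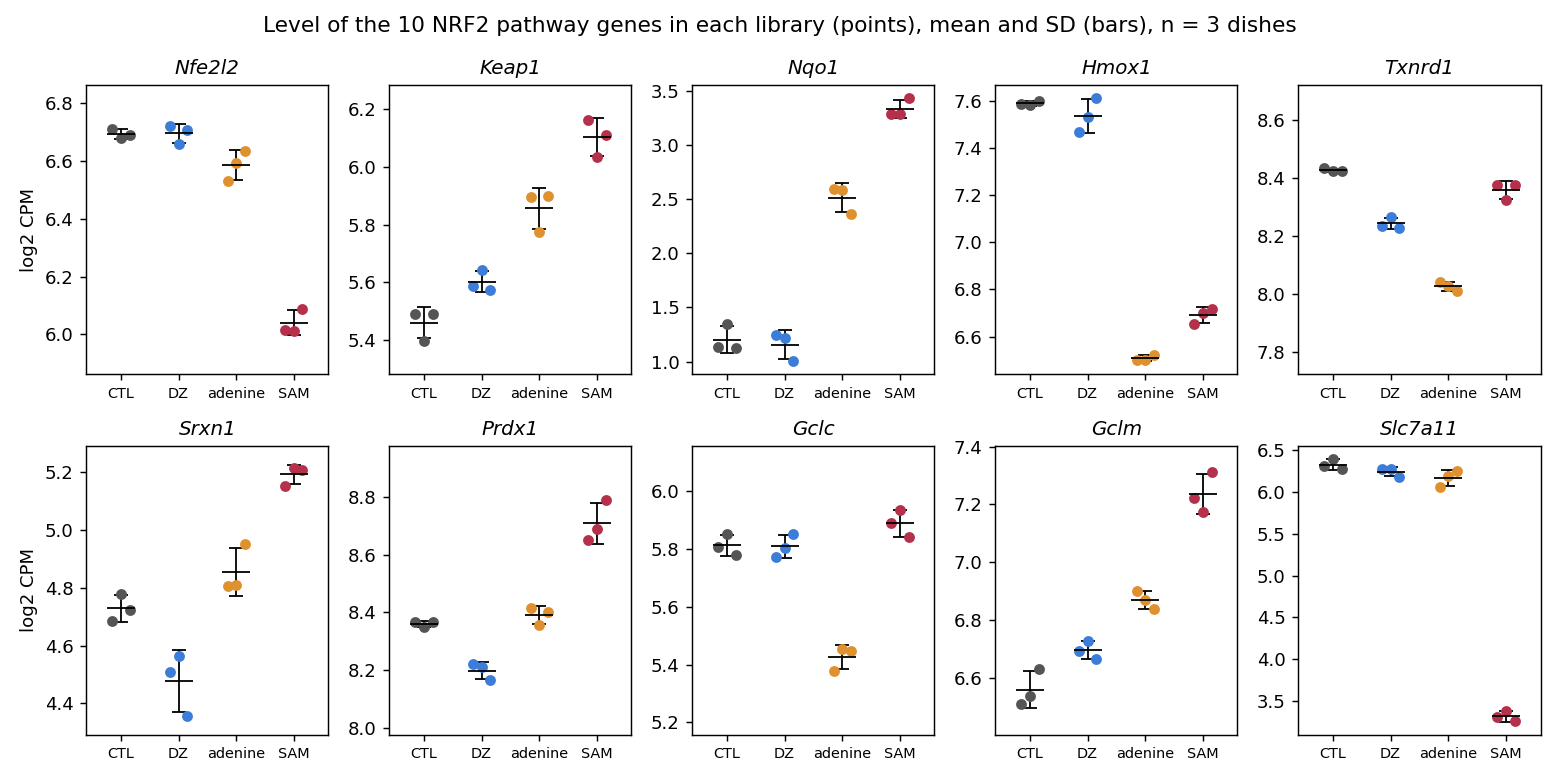
Level in log2 CPM (y axis, a scale of its own in each panel that spans at least 1 unit) of each of the 10 genes in the 12 libraries, grouped as CTL, DZ, adenine, and SAM, with the mean and SD of 3 dishes. The SAM dishes of Slc7a11 lie between 3.25 and 3.38 and all others at 6.06 or above, whereas Nqo1 climbs from near 1.20 in CTL to 3.33 in SAM.

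Cystine import and glutathione synthesis were split 3 ways. Slc7a11 (ENSMUSG00000027737.11, chr3:49846975-50398070, minus strand), the cystine-glutamate exchanger of the plasma membrane whose promoter stretch is printed above, fell under SAM. Its levels were 6.31, 6.40, and 6.27 log2 CPM in CTL, 6.28, 6.28, and 6.18 in DZ, 6.06, 6.20, and 6.25 in adenine, and 3.30, 3.38, and 3.25 in SAM. In reads, the CTL dishes held 3508, 4034, and 3532 and the SAM dishes 585, 590, and 476. The SAM dishes were far below all others, and the other groups lay close together. The log2 fold change for SAM was -3.02 (SE 0.054, 95% interval -3.13 to -2.90, limma adjusted p = 4.24e-16), an 8.09-fold lower level.

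Against adenine, Slc7a11 was 7.25-fold lower in SAM, with a log2 fold change of -2.86 (limma adjusted p = 3.37e-15). By absolute size this was rank 1 of all 12591 genes in that comparison, and rank 2 with a pseudocount of 1 CPM, whereas for SAM against CTL it was rank 33. The value for adenine itself, -0.16, missed the threshold (limma adjusted p = 0.0160). It passed without adenine replicate 3 (-0.20, adjusted p = 0.00728), with median centring (-0.21, adjusted p = 0.00308), and with voom on the recovered reads (-0.16, adjusted p = 0.00816). For DZ it was -0.082 with a 95% interval of -0.20 to 0.033.

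Gclm (ENSMUSG00000028124.16, chr3:122039126-122065061, plus strand) encodes the modifier subunit of glutamate-cysteine ligase, the enzyme that starts glutathione synthesis, and it was the only one of the 10 that was called in every comparison in the same direction. It measured 6.51, 6.54, and 6.63 log2 CPM in CTL, 6.69, 6.73, and 6.67 in DZ, 6.90, 6.87, and 6.84 in adenine, and 7.22, 7.18, and 7.31 in SAM. The groups did not overlap, and SAM stood highest. Gclm rose by 0.31 under adenine (SE 0.039, limma adjusted p = 3.84e-06) and by 0.68 under SAM (limma adjusted p = 2.84e-10), and SAM exceeded adenine by 0.37 (limma adjusted p = 1.86e-06). The rise of 0.14 under DZ (limma adjusted p = 0.00808) was lost in 5 of 6 fits that left out a library (all but that without CTL replicate 3), with adjusted p between 0.00278 and 0.0438 over the 6. It was also lost without a variance trend, with median centring, and with voom. A processed pseudogene on the same strand, Gm6061, lies inside Gclm and could share its reads, so the values of Gclm are uncertain to that extent. Gm6061 changed by 0.058 under DZ (limma adjusted p = 0.334), 0.35 under adenine (limma adjusted p = 1.24e-05), and 0.68 under SAM (limma adjusted p = 5.42e-09).

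Gclc (ENSMUSG00000032350.10, chr9:77661797-77701770, plus strand), the catalytic subunit of the same enzyme, did not follow Gclm. Its dishes measured 5.81, 5.85, and 5.78 log2 CPM in CTL, 5.77, 5.80, and 5.85 in DZ, 5.38, 5.45, and 5.45 in adenine, and 5.89, 5.94, and 5.84 in SAM. The adenine dishes lay below all others, and the remaining groups were close together. Gclc fell by 0.39 on the log2 scale under adenine (SE 0.039, limma adjusted p = 2.89e-07), while SAM gave 0.077 (limma adjusted p = 0.0836), which passed with plain read totals (0.20, adjusted p = 2.04e-04). Its level in SAM exceeded that in adenine by 0.46 (limma adjusted p = 1.36e-07). For DZ the value was -0.0026 with a 95% interval of -0.086 to 0.080.

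The mRNA difference between the 2 subunits of the ligase was larger in adenine and SAM than in CTL and DZ. It was not tested, and the subunit proteins were not measured. Within a library, Gclm exceeded Gclc by 0.75 ± 0.091 log2 CPM (SD, n = 3) in CTL, 0.89 ± 0.062 in DZ, 1.44 ± 0.069 in adenine, and 1.35 ± 0.11 in SAM. The adenine and SAM dishes overlapped in this difference and lay above all CTL and DZ dishes. In adenine it came with a lower Gclc and a higher Gclm, and in SAM with a higher Gclm.

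**Figure D3:**
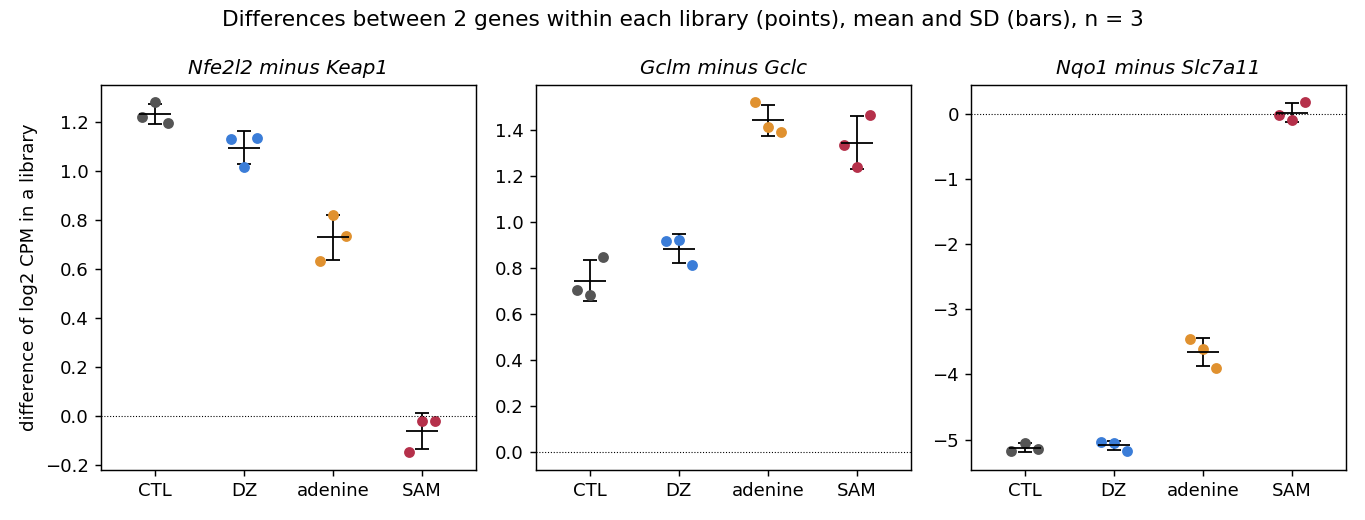
Difference of log2 CPM between 2 genes in the same library (y axis) for Nfe2l2 minus Keap1, Gclm minus Gclc, and Nqo1 minus Slc7a11, with the mean and SD of 3 dishes per group. The differences in SAM are -0.062, 1.35, and 0.022, against 1.23, 0.75, and -5.13 in CTL.

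In the thioredoxin and peroxiredoxin system, Txnrd1 (ENSMUSG00000020250.12, chr10:82669785-82733546, plus strand), the cytosolic thioredoxin reductase, fell under DZ and under adenine. It measured 8.43, 8.43, and 8.42 log2 CPM in CTL, 8.24, 8.27, and 8.23 in DZ, 8.04, 8.03, and 8.01 in adenine, and 8.38, 8.33, and 8.38 in SAM. The spread of the CTL dishes was only 0.0051 (SD, n = 3), and every treated dish lay below every CTL dish. Txnrd1 fell by 0.18 on the log2 scale under DZ (SE 0.025, limma adjusted p = 1.63e-05) and by 0.40 under adenine (limma adjusted p = 9.51e-10). Its level was 0.33 higher in SAM than in adenine (limma adjusted p = 4.27e-08). For SAM against CTL the value was -0.069 (limma adjusted p = 0.0209), it passed without SAM replicate 3 (-0.078, adjusted p = 0.0090) and with median centring (-0.11, adjusted p = 0.0010), and it turned to 0.053 with plain read totals.

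Prdx1 (ENSMUSG00000028691.13, chr4:116532123-116558398, plus strand), the peroxiredoxin that reduces hydrogen peroxide with electrons from thioredoxin, fell under DZ and rose under SAM. The dishes ranged from 8.35 to 8.37 log2 CPM in CTL, from 8.17 to 8.22 in DZ, from 8.36 to 8.41 in adenine, and from 8.65 to 8.79 in SAM. DZ lay below and SAM above all CTL dishes, and the adenine dishes overlapped those of CTL. The log2 fold change was -0.16 for DZ (SE 0.033, limma adjusted p = 7.33e-04) and 0.35 for SAM (limma adjusted p = 1.20e-07), and SAM exceeded adenine by 0.32 (limma adjusted p = 1.49e-06). Adenine against CTL gave 0.030 with a 95% interval of -0.041 to 0.10. A processed pseudogene named after Prdx1, Prdx1-ps, is annotated on the minus strand and was not in the table.

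Srxn1 (ENSMUSG00000032802.9, chr2:151947436-151957687, plus strand), sulfiredoxin, which repairs over-oxidized peroxiredoxins, had the same signs as Prdx1. Its levels were 4.69, 4.78, and 4.72 log2 CPM in CTL, 4.51, 4.56, and 4.36 in DZ, 4.80, 4.81, and 4.95 in adenine, and 5.15, 5.21, and 5.21 in SAM. The SAM dishes were the highest and the DZ dishes the lowest of the 12. Srxn1 changed by -0.25 under DZ (SE 0.058, limma adjusted p = 0.00173) and by 0.46 under SAM (limma adjusted p = 2.69e-06), and was 0.34 higher in SAM than in adenine (limma adjusted p = 1.80e-04). Without DZ replicate 3, which was its lowest dish, the value for DZ was -0.19 and missed the threshold (adjusted p = 0.0112). Adenine gave 0.13 (limma adjusted p = 0.0641), which passed with plain read totals (0.19, adjusted p = 0.00904). Srxn1 minus Prdx1 within a library stayed between -3.72 ± 0.081 (SD, n = 3) in DZ and -3.52 ± 0.055 in SAM.

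Nqo1 (ENSMUSG00000003849.9, chr8:108113835-108129934, minus strand), the quinone reductase that is the usual marker gene of NRF2 activity, was the lowest of the 10 in CTL and rose most. It measured 1.13, 1.35, and 1.13 log2 CPM in CTL, 1.24, 1.22, and 1.01 in DZ, 2.60, 2.58, and 2.36 in adenine, and 3.29, 3.28, and 3.43 in SAM. These values rest on 95, 120, and 98 reads in CTL and on 578, 552, and 539 in SAM, and so are less precise than those of the other genes. Adenine and SAM dishes lay above all CTL dishes, and those of SAM above those of adenine. The log2 fold change was 1.31 for adenine (SE 0.11, limma adjusted p = 3.38e-08) and 2.13 for SAM (95% interval 1.90 to 2.37, limma adjusted p = 6.38e-11). SAM exceeded adenine by 0.82 (limma adjusted p = 1.68e-05). DZ gave -0.046 with a 95% interval of -0.28 to 0.19.

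Hmox1 (ENSMUSG00000005413.9, chr8:75820241-75827217, plus strand), the inducible haem oxygenase, went down where Nqo1 went up. Its dishes measured 7.59, 7.58, and 7.60 log2 CPM in CTL, 7.47, 7.53, and 7.61 in DZ, 6.50, 6.50, and 6.52 in adenine, and 6.65, 6.70, and 6.72 in SAM. The DZ dishes overlapped those of CTL, and all adenine and SAM dishes were lower. Hmox1 fell by 1.08 on the log2 scale under adenine (SE 0.034, limma adjusted p = 5.00e-13) and by 0.90 under SAM (limma adjusted p = 1.65e-12), and was 0.18 higher in SAM than in adenine (limma adjusted p = 3.60e-04). For DZ the value was -0.052 with a 95% interval of -0.12 to 0.021.

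The difference in log2 CPM between Nqo1 and Slc7a11 closed under SAM. Within a library Nqo1 lay 5.13 ± 0.068 log2 CPM (SD, n = 3) below Slc7a11 in CTL, as the difference of -5.13 in the plot of within-library differences shows, and the difference was -5.09 ± 0.075 in DZ and -3.66 ± 0.22 in adenine. In SAM it was 0.022 ± 0.14, and the 3 dishes lay on both sides of 0. This difference is not corrected for transcript length, and only its change between groups can be read. The SAM means per kilobase of the Ensembl canonical transcript were 1.92 log2 CPM for Nqo1 and 0.11 for Slc7a11.

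Per kilobase of the Ensembl canonical transcript, the order of levels in CTL was Prdx1 (6.94 log2 CPM per kb), Hmox1 (6.93), Txnrd1 (6.70), Nfe2l2 (4.85), Gclc (4.03), Gclm (3.89), Keap1 (3.78), Slc7a11 (3.12), Srxn1 (1.88), and Nqo1 (-0.21). Only Prdx1 and Hmox1 overlapped between dishes among neighbours in this order. With the longest annotated transcript, Prdx1 and Hmox1 changed places, as did Gclc and Gclm.

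For the 3 genes whose group means spanned the widest range, the 3 other genes with the most similar profile over the 12 libraries were sought by Pearson r among 6478 genes whose group means spanned at least 0.5. Slc7a11 was most similar to Dhrs9 (r = 0.996), Taf15 (0.996), and Chac1 (0.995), which changed by -2.59, -0.98, and -2.54 under SAM. For Nqo1 these were Pold3 (r = 0.996), Acat2 (0.995), and Sall2 (0.995), and for Hmox1 they were Grina (r = 0.997), Dpf2 (0.994), and Kcmf1 (0.993). The 12 libraries fall into groups, so that each r mainly reflects the group means and is given as a description.

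A wider list of 72 genes of the pathway, of which 60 were in the table, gave 28 called genes under DZ (12 higher and 16 lower), 41 under adenine (18 and 23), and 47 under SAM (28 and 19). These are 46.7%, 68.3%, and 78.3% of the 60, near the 45.9%, 61.6%, and 69.3% of all genes, and the counts of each role below stand beside the same shares. Between SAM and adenine 45 of the 60 were called, or 75% against 42.7% of all genes, with 31 higher in SAM (20.8% of all genes) and 14 lower (22%). Their median log2 fold changes were -0.031, -0.056, 0.085, and 0.167 in the same order. The value of 0.085 for SAM was 0.050 without CTL replicate 2, 0.054 without SAM replicate 3, and 0.046 with median centring. With plain read totals the splits were 24 higher and 20 lower under adenine and 34 higher and 9 lower for SAM against adenine. The named genes are, in each role, the called gene with the largest rise and fall against CTL.

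Of the 10 genes listed as regulators, 6 fell and none rose under SAM, and 6 fell and 1 rose under adenine. The list mixes partners of NRF2 with factors of its degradation, so these counts give no direction for NRF2 activity. Of all genes, 35.7% were called lower and 33.7% higher under SAM, and 31% lower and 30.6% higher under adenine. The largest fall was that of Sqstm1, the autophagy receptor p62 that can sequester KEAP1, at -1.29 under adenine and -1.61 under SAM (SE 0.026, limma adjusted p = 1.77e-16). Under DZ 2 rose and 3 fell, with Maff, a small MAF partner of NRF2, at 0.18 and Btrc, a ubiquitin ligase adaptor for NRF2, at -0.35, and Btrc was at 0.16 under adenine.

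Of 13 measured genes of glutathione use and synthesis, 8 rose and 4 fell under SAM, 5 rose and 4 fell under adenine, and 5 rose and 2 fell under DZ. Under SAM, Glrx, which reduces glutathione-protein disulfides, rose by 1.80 and Abcc4, an export pump, changed by -3.06 (limma adjusted p = 1.31e-16). Under adenine Mgst3, a microsomal glutathione transferase, rose by 1.27 and Abcc4 changed by -1.89. DZ gave 0.72 for Gss, glutathione synthetase, and -0.70 for Gstm1, a glutathione transferase with close paralogs that could share its reads. Both had the opposite sign under SAM, with Gss at -0.23 (limma adjusted p = 6.84e-04) and Gstm1 at 0.98 (limma adjusted p = 1.74e-11). Slc3a2, the heavy chain that carries the Slc7a11 protein to the membrane and was singled out after its values were seen, changed by 0.38 under DZ, -0.14 under adenine, and -0.94 under SAM (all called, limma adjusted p = 3.42e-08, 5.20e-04, and 1.47e-13), and by -0.80 between SAM and adenine.

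Of 12 genes of the thioredoxin and peroxiredoxin group, 6 rose and 4 fell under SAM, 3 and 5 under adenine, and 2 and 3 under DZ. Prdx4, the peroxiredoxin of the endoplasmic reticulum, led the rises under SAM at 1.45 and under DZ at 0.42, and Sesn1, a sestrin, under adenine at 1.25. The largest falls were those of Sesn2 under SAM at -1.74, Prdx6 under adenine at -0.79, and Txnip, the thioredoxin-interacting protein, under DZ at -0.62.

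Among 8 measured quinone, aldehyde, and xenobiotic enzymes, 5 rose and 1 fell under SAM, 4 and 3 under adenine, and 1 and 3 under DZ. Ptgr1, a prostaglandin and alkenal reductase, rose by 1.49 under adenine and by 1.89 under SAM, and Nqo2, the paralog of Nqo1, rose by 0.50 under DZ. The largest fall was that of Ugt1a6a in every treatment, at -1.09, -1.68, and -2.03 for DZ, adenine, and SAM, although this gene shares exons with its cluster and its counts are uncertain.

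Of the 6 genes of NADPH supply, 3 rose and 1 fell under SAM, 2 and 3 under adenine, and 1 and 2 under DZ. Idh1, the cytosolic isocitrate dehydrogenase, rose by 0.83 under adenine and by 1.32 under SAM, and was at -0.24 under DZ (called, limma adjusted p = 0.00649). G6pdx, the entry enzyme of the pentose phosphate pathway, was at 0.27 under DZ, -0.20 under adenine, and -0.31 under SAM (all called), and Tkt, transketolase of the same pathway, was at -0.90 under DZ and -0.62 under adenine.

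All 7 genes of iron and haem handling were called under SAM (5 higher and 2 lower), against 3 under adenine (2 and 1) and 2 lower under DZ, where 69.3%, 61.6%, and 45.9% of all genes were called. Blvrb, a biliverdin reductase, rose by 0.41 under adenine and by 1.03 under SAM. Slc40a1, the iron exporter ferroportin, was at -0.50 under DZ and -0.91 under SAM but at 0.40 under adenine (called, limma adjusted p = 0.00342), and Ftl1, the ferritin light chain, at -1.05 under adenine. Of 4 superoxide and peroxide scavengers, Sod3, the extracellular superoxide dismutase, rose by 0.78, 1.08, and 2.03 under DZ, adenine, and SAM, and the cytosolic Sod1 changed by -0.51, -0.75, and -0.78. Cat and Sod2 were called in none of these 3 comparisons.

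**Figure D4:**
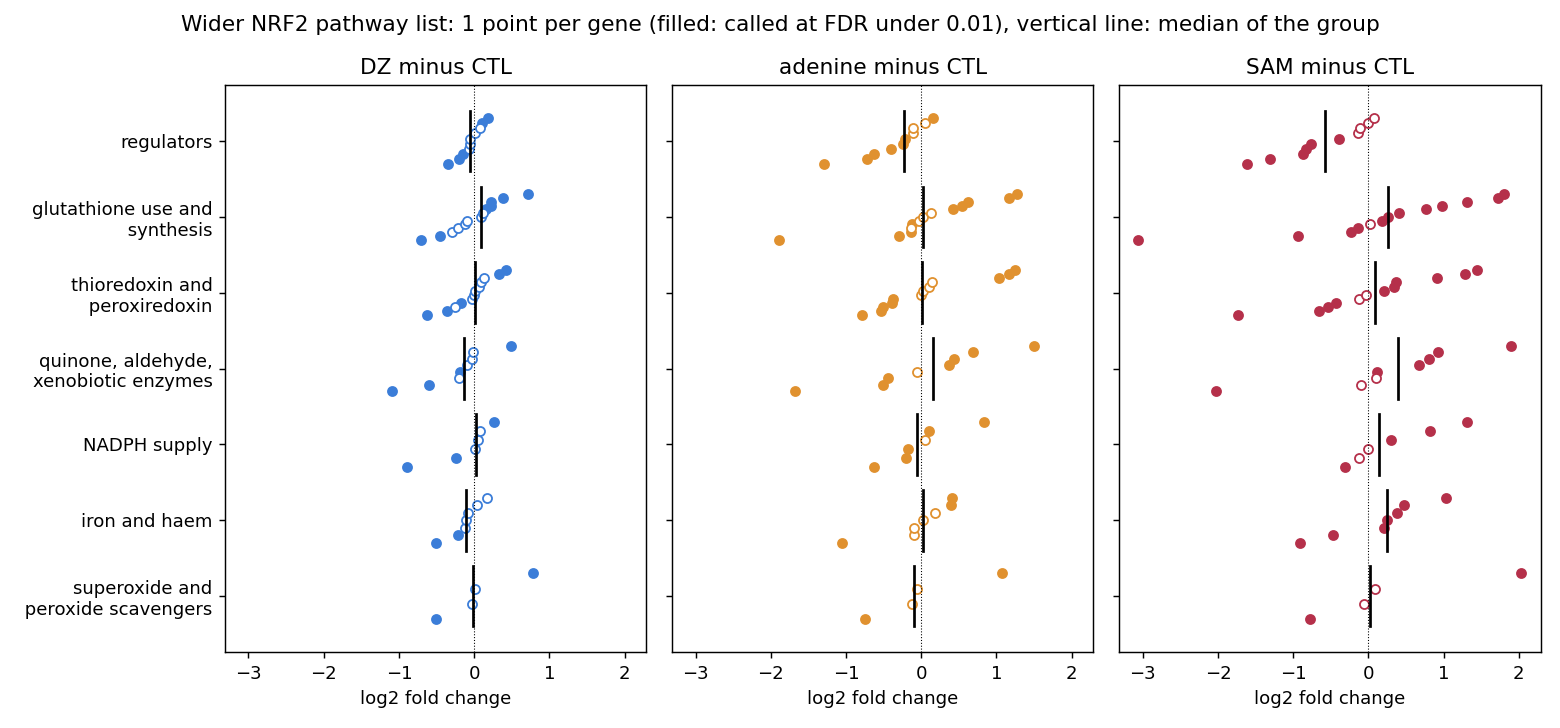
Log2 fold change (x axis) of the 60 measured genes of the wider list against CTL, 1 panel per treatment and 1 row per role, with filled points for called genes and a vertical line at the median of the role. The points of DZ stay between -1.09 and 0.78, those of SAM reach from -3.06 to 2.03, and the median of the regulators is -0.57 under SAM.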

How the data were processed

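Poly(A) RNA of 12 libraries (3 dishes in each of 4 groups, assigned by their treatment labels) was analysed from 1 deposited table. The authors trimmed reads with Trimmomatic, aligned them to GRCm39 with HISAT2 guided by GENCODE vM27, quantified with StringTie, tested with edgeR, and kept genes that reached 1 CPM in every sample. The deposited values are log2 CPM of normalized library sizes with a prior count of 2. Because they are log2 values, limma 3.58.1 (R 4.3.3) was run in place of a count model, with lmFit, 1 model of 4 groups, eBayes with a variance trend, and Benjamini-Hochberg adjustment over 12591 genes at an FDR of 0.01. On simulated data it recovered 96% of genes changed by a log2 fold of 1 in the comparison of DZ with CTL, run on 12591 genes. Whole reads were recovered for 100% of values (largest distance from a whole read 0.0024), and no gene had fewer than 46. StringTie derives reads from coverage, so they are estimates.

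The genes, lists, and tests were chosen with earlier results of these data known. Named genes are the 10 members, the called gene with the largest rise and fall of each role of the wider list in each comparison with CTL, and the 3 most similar profiles of the 3 members with the widest span. Positions come from GENCODE vM39, which matched 12575 identifiers. Python 3.11.15, numpy 2.4.6, pandas 2.3.3, and matplotlib 3.10.9 were used. Alternatives were no variance trend, a mean of at least 3 log2 CPM, a pseudocount of 1 CPM, plain read totals, median centring, voom on the recovered reads, only the groups compared, an FDR of 0.05, a replicate block, the longest transcript, and leaving out each library.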

Additional observations from a re-analysis of the deposited data

How the results depend on the processing

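All calls of the 10 genes for SAM against adenine held under every alternative that was run (Nqo1 drops out under the filter on low values), as did the direction of every called value. Of 356 values of single genes under the alternatives other than leaving out a library, 337 kept direction and side of the threshold, 4 lost and 11 gained the call, and 4 turned sign; of 240 that left out a library, 223 kept both, 6 lost and 3 gained the call, and 8 turned sign. The sign turned only where no call was made: for DZ, Nfe2l2 (-0.0109 with median centring, -0.0086 to 0.0223 over left-out libraries), Nqo1 (-0.0901 to 0.0297 over left-out libraries), and Gclc (0.0226 with plain read totals, -0.0238 to 0.0172 over left-out libraries); for adenine, Prdx1 (-0.0214 with median centring); and for SAM, Txnrd1 (0.0534 with plain read totals). The medians of the 10 genes moved with plain read totals to -0.024 for DZ, 0.0233 for adenine, 0.334 for SAM, and 0.385 for SAM against adenine, and with median centring to -0.0637, -0.0898, and 0.173 for DZ, adenine, and SAM. The filter at a mean of 3 log2 CPM gave -0.107 for adenine and 0.077 for SAM. Medians of the wider list moved with plain read totals to -0.00595, 0.00549, 0.207, and 0.227 in the same order, and with median centring to -0.0457, -0.108, and 0.0459 for DZ, adenine, and SAM. Leaving out a library gave 2 to 4 called members, a median of the members of -0.0677 to -0.0249, and a median of the wider list of -0.043 to -0.0273 for DZ. For SAM that last median, 0.0849, was 0.0499 without CTL replicate 2, 0.054 without SAM replicate 3, and up to 0.101 without another library, and 0.0534 with the filter. With the longest transcript 4 genes changed rank by level. Apart from the genes removed by the filter, the cause was not tested.

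With the replicate number as a block, the DZ call of Gclm was lost (0.1362, limma adjusted p = 0.0103) and no other call of the 10 genes changed. Pearson r of deviations from group means lay between -0.142 and 0.181 for 18 pairs with the same number, 1 of them over 0.1. For pairs with different numbers it lay between -0.15 and 0.117, and 4 of 12 libraries correlated best with their own number. Deviations from means of 3 dishes are too few to decide whether the numbers pair the dishes. With 3 dishes per group the precision rests on the variance that limma shares across genes, and Nqo1 rests on the fewest reads of the 10.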
